A study of Caenorhabditis elegans with 14 samples.

Results

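A miRNA precursor is cut into a duplex of 2 short strands, 1 from each arm of the hairpin. The 64 strands described here are star strands from the 5p arm, that is, the 5p strands of precursors whose 3p strand is annotated as the guide. They were chosen from the 103 strands with that annotation among the 371 miRNA strands of the count table, by the rule of at least 10 counts in at least 2 libraries. The table also holds 54 star strands from the 3p arm and 214 guides, and 35 of the 3p stars meet the same rule.

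The libraries are small RNA libraries of *C. elegans* grown at 20 °C, 14 in all, made to ask whether loss or truncation of HRPK-1, an RNA-binding protein with KH domains, changes miRNA levels. At L4, the last larval stage, there were 2 libraries of *hrpk-1(tm5522)*, an in-frame deletion that leaves a truncated protein and that the study treats as antimorphic, 3 of *hrpk-1(zen17)*, a null deletion, and 3 of wild type N2. Embryos were sampled as 3 libraries of *hrpk-1(zen17)* and 3 of wild type. Each mutant strain is 1 allele, and nothing in the labels says whether replicates came from separate cultures, so p-values measure the spread between these libraries, which may be technical.

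In worms as in other animals, the guide strand is kept by an Argonaute protein (ALG-1 or ALG-2 for most *C. elegans* miRNAs), and the star strand is released and usually degraded. A star is therefore normally far scarcer than its guide, although both come from the same precursor in equal number. The 2 strands carry different seeds, so a star that persists could bind other targets than its guide.

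The table totals were between 11195163 and 19762103 counts in L4 libraries and between 1919348 and 10900326 in embryo libraries, with wild type embryo replicate 3 the shallowest. In 3 of the groups 1 library stood apart from the other 2: wild type L4 replicate 2 (Pearson correlations of log2 CPM of 0.975 and 0.976 with the others, against 0.994 between them), *hrpk-1(zen17)* embryo replicate 2 (0.980 and 0.981, against 0.992) and wild type embryo replicate 3 (0.982 and 0.983, against 0.991). The stage labels fitted the stage markers: guides of the mir-35 family, which are made in embryos, took 0.140% to 0.386% of the counts at L4, against 51.4% to 77.6% in embryos, and let-7, which is switched on in larvae, took 1.1% to 4.8% at L4, against 0.0007% to 0.0035% in embryos. The *hrpk-1* genotype itself cannot be read from miRNA counts.

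The star annotation held for most members. In each library the guide had more counts than the star for 53 to 60 of the 64 members. With all libraries summed, stars made up a median of 1.83% of star plus guide counts. The scarcest, relative to its guide, was miR-35-5p (0.00149%), followed by miR-1-5p (0.00366%), the star of a muscle miRNA. For 51 members the star was below or level with the guide in every library. For 13 it was above the guide in at least 1 library, and for none in all 14.

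5 members had more star than guide counts in the sum of all libraries. They were miR-1834-5p (106 counts against 5 for its guide), miR-360-5p (264 against 45), miR-75-5p (5528 against 2117), miR-392-5p (102 against 56) and miR-4806-5p (106 against 88). Of these only miR-75-5p, the star of a relative of miR-79, was measured deeply. It made up 86.1% and 95.5% of the pair in *hrpk-1(tm5522)* L4 larvae, at least 72.6% in the *hrpk-1(zen17)* L4 libraries and 46.1% to 69.9% in wild type L4 larvae. In embryos it made up 23.2% to 36.1% in *hrpk-1(zen17)* and 24.6% to 52.5% in wild type, so which strand of this precursor was more abundant differed between the stages in most libraries.

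**Figure D1:**
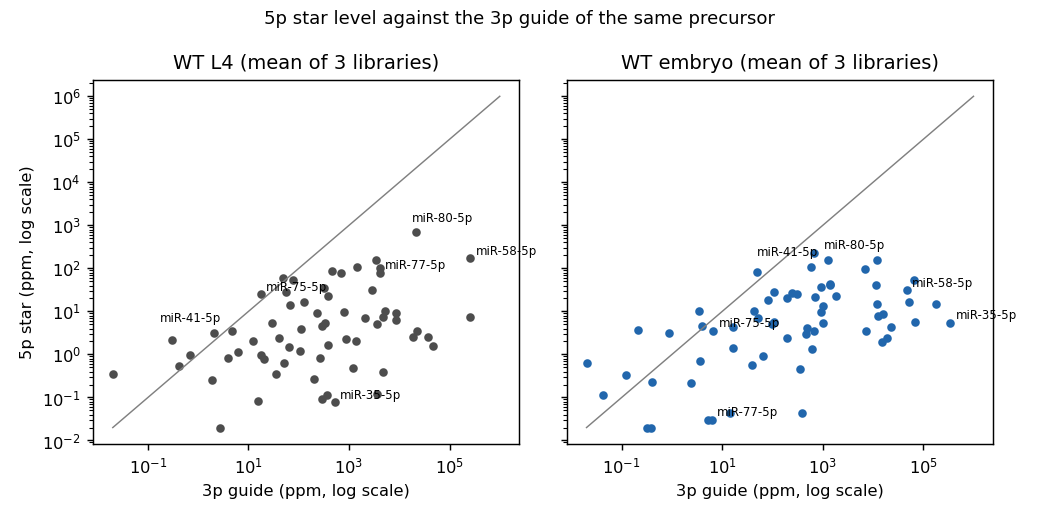
Mean level of each 5p star (vertical axis, in ppm, counts per 1000000 library counts, log scale) against the 3p guide of its precursor (horizontal axis, ppm, log scale) in wild type L4 larvae (left) and wild type embryos (right), n = 3 libraries each, with values under 0.02 ppm drawn at 0.02 and the line marking equal levels. Most points lie far below the line, and miR-80-5p, at a mean of 684 ppm in L4 larvae and 156 ppm in embryos, is among the highest stars at both stages.

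Positions on WBcel235 were found by name for 61 of the 64 precursors. Of these, 34 lie between protein-coding genes, 26 in introns and 1 in an exon. Introns of genes on either strand were counted. Some of the 26 lie opposite to the strand of the gene around them, among them mir-35 to mir-41 and mir-54 to mir-56. The X chromosome holds 19 and chromosome II holds 16. There is another miRNA gene within 1000 bases on the same strand for 20 of them, among them the mir-35 to mir-41 cluster on chromosome II, with mir-35 at 11537608-11537704 and mir-41 at 11538308-11538404, and the mir-54 to mir-56 cluster on the X chromosome.

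Summed over the 64 members, 5p stars took a small share of each library, given here in ppm. At L4 the mean share was 2206 ± 326 ppm for *hrpk-1(tm5522)* (SD, n = 2), 1922 ± 512 ppm for *hrpk-1(zen17)* and 1888 ± 373 ppm for wild type (SD, n = 3 each). In embryos it was 1226 ± 277 ppm in *hrpk-1(zen17)* and 1431 ± 759 ppm in wild type (SD, n = 3 each). The 3 genotypes overlapped at L4 and the 2 genotypes overlapped in embryos. The 39 members that failed the counting rule added 530 counts in all libraries together, against 297605 for the 64. Just inside the rule were miR-1834-5p and miR-238-5p, with second highest counts of 11 and 15, and just outside were miR-2208a-5p, miR-245-5p and miR-255-5p, each with 9.

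Wild type embryo replicate 3, the shallowest library, gave the highest embryo share, at 2286 ppm, with 836 and 1171 ppm in the other 2 wild type embryo libraries. The mir-35 family guides took 51.4% of that library and 77.6% and 72.8% of the other 2, and 52.9% to 62.8% of the *hrpk-1(zen17)* embryo libraries. A larger share for these guides leaves less of the library for every other strand, and how far this sets the star share was not tested.

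miR-80-5p, the star of a bantam family miRNA encoded on chromosome III at 8865270-8865367, was the most abundant member. It was at 745 and 491 ppm in *hrpk-1(tm5522)*, at 662, 871 and 594 ppm in *hrpk-1(zen17)* and at 956, 408 and 687 ppm in wild type L4 larvae. In embryos it was at 85.6, 207 and 87.7 ppm in *hrpk-1(zen17)* and at 62.2, 134 and 270 ppm in wild type. Every L4 library was thus above every embryo library, while genotypes overlapped within each stage. Without it the share of the remaining 63 members was 1588 ppm in *hrpk-1(tm5522)*, 1212 ppm in *hrpk-1(zen17)* and 1205 ppm in wild type at L4. In embryos it was 1099 ppm for *hrpk-1(zen17)* and 1275 ppm for wild type, so that most of the difference in summed share between the stages was this 1 strand.

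After miR-80-5p, the highest mean levels over the 5 groups were those of miR-54-5p, miR-47-5p, miR-46-5p, miR-63-5p, miR-58-5p, miR-230-5p, miR-44-5p, miR-77-5p and miR-4816-5p. Their guides differ widely in abundance. miR-58-3p, the guide of miR-58-5p and also of the bantam family, was at a mean of 259469 ppm in wild type L4 larvae and its star at 172 ± 64 ppm (SD, n = 3), and the mean of the star's share of the pair over the 3 libraries was 0.0845%. miR-54-3p, of the mir-51 family, was at 687 ppm there and its star at 79.9 ± 26.3 ppm (SD, n = 3), and the mean share was 11.3%.

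**Figure D2:**
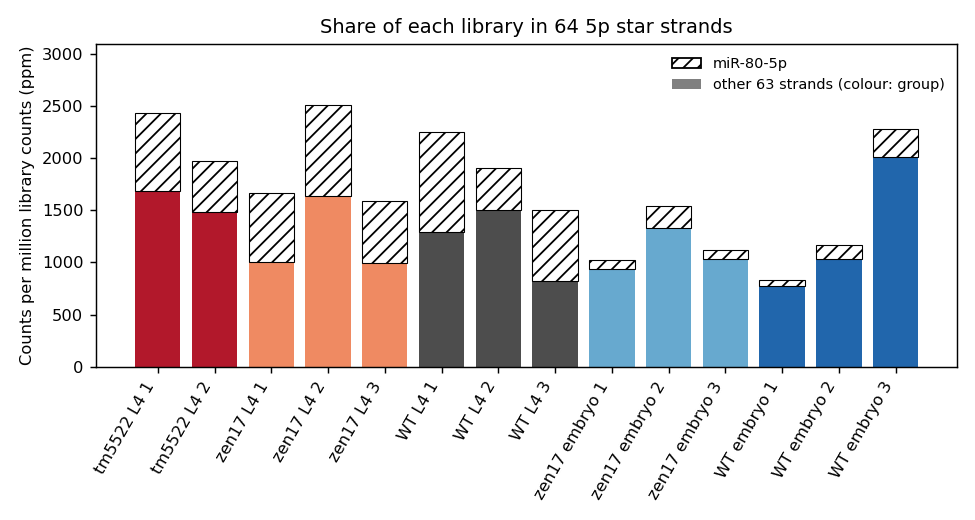
Counts in the 64 5p stars as ppm of each library (vertical axis, from 0), for the 14 libraries, coloured by group, with miR-80-5p hatched on top of the other 63 strands. The hatched part is between 408 and 956 ppm in L4 libraries and between 62.2 and 270 ppm in embryo libraries, and wild type embryo replicate 3 has the largest solid part, at 2015 ppm.

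Most members that could be tested differed between the stages. At L4 against embryos, 44 of 56 members tested in *hrpk-1(zen17)* passed an adjusted p of 0.05 (edgeR quasi-likelihood test, Benjamini-Hochberg over all strands), 17 higher and 27 lower at L4, and 72.7% of the 238 strands tested passed, 34.0% higher and 38.7% lower. In wild type, 42 of 54 members passed, 17 higher and 25 lower, against 72.2% of 230 strands, 40.9% higher and 31.3% lower. The share of members called was thus near that of all strands. The median log2 fold change of the members was -0.70 in *hrpk-1(zen17)* and -0.57 in wild type, against -0.27 and 0.38 over all strands tested. Library totals as the scale moved the median of all strands by 0.08 in *hrpk-1(zen17)* and by 0.21 in wild type, and DESeq2 moved it by 0.29 and by -0.09. Of the 44 calls in *hrpk-1(zen17)*, 29 could be tested under every alternative and 25 of these held under all, and of the 42 in wild type, 30 could be tested and 24 held. The scarcer stars drop out where at least 50 counts are asked for. Counting only the alternatives in which a star was tested, 38 calls held in *hrpk-1(zen17)* and 36 in wild type, and all kept their direction. Without the libraries that stood apart the counts were close: 47 members passed in *hrpk-1(zen17)* without embryo replicate 2, and in wild type 44 passed without L4 replicate 2 and 42 without embryo replicate 3.

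The stars that were higher at L4 included several that were close to undetected in embryos. miR-77-5p, from chromosome II at 12519268-12519367, had 945, 2925 and 1087 counts in *hrpk-1(zen17)* L4 larvae, against 0 for each *hrpk-1(zen17)* embryo library, which makes it at least 943-fold higher at L4, with the limit of 3 counts taken over the group. In wild type it had 2207, 310 and 1534 counts at L4, against 1, 0 and 0 in embryos, a ratio of 1653 with a 95% counting interval of 297 to 65315. Wild type L4 replicate 2, which stood apart, was the low one. Its guide moved as well, with a wild type mean of 4119 ppm at L4, against 6.17 ppm for embryos.

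miR-230-5p, from the X chromosome at 5803892-5803989, was at 87.4, 150 and 103 ppm in *hrpk-1(zen17)* L4 larvae, against 1.07, 2.18 and 0.430 ppm in *hrpk-1(zen17)* embryos, and at 82.5, 114 and 59.3 ppm in wild type L4 larvae, against 0, 0.130 and 0.521 ppm in wild type embryos. No L4 library came near any embryo library. The difference in *hrpk-1(zen17)* was 6.44 on the log2 scale (SE 0.42, adjusted p = 3.4e-08). In wild type the 3 embryo libraries held 2 counts together, a ratio of 850 with a 95% counting interval of 235.2 to 7022.

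miR-240-5p rose by 6.45 in *hrpk-1(zen17)* (SE 0.69, adjusted p = 3.3e-06) and by 4.51 in wild type (SE 0.67, adjusted p = 8.6e-05). The *hrpk-1(zen17)* embryo libraries held only 0.994, 0 and 0.170 CPM after TMM scaling, so the size of that rise rests on few counts. miR-70-5p, the star of a miRNA encoded within pmp-5, in an intron, rose by 3.99 in wild type (SE 0.90, adjusted p = 0.0019), with 113, 26 and 120 counts at L4 and 1, 2 and 2 in embryos. In *hrpk-1(zen17)* it had 1 count in the 3 embryo libraries together, and the L4 to embryo ratio was 200 with a 95% counting interval of 35.7 to 7935. miR-788-5p rose by 3.30 in *hrpk-1(zen17)* and 3.33 in wild type, miR-75-5p by 3.48 and 2.80, and miR-80-5p by 2.49 and 2.26. miR-79-5p, from a homolog of miR-9, rose by 1.24 in *hrpk-1(zen17)* and 1.32 in wild type, and miR-83-5p, from a homolog of miR-29, by 1.19 and 1.60.

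The stars that were lower at L4 were led by the mir-35 family, whose guides are needed for embryonic viability. All 8 of its listed members fell in *hrpk-1(zen17)*, with a median log2 fold change of -5.95, and the 7 that could be tested in wild type fell there, with a median of -5.69, which is the same with miR-38-5p at its bound. The most abundant, miR-41-5p, was at 4.93, 1.88 and 2.58 ppm in wild type L4 larvae, against 83.9, 93.6 and 142 ppm in wild type embryos, a log2 fold change of -5.22 (SE 0.51, adjusted p = 4.3e-06). miR-38-5p had no counts in any wild type L4 library and 28, 15 and 22 in wild type embryos, which makes it at least 53.1-fold lower at L4.

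The 3 listed stars of the mir-51 family fell in both genotypes, with log2 fold changes in *hrpk-1(zen17)* and wild type of -0.97 and -1.49 for miR-54-5p, -1.47 and -1.42 for miR-55-5p, and -2.84 and -3.82 for miR-56-5p. In the bantam family miR-80-5p and miR-58-5p rose and miR-81-5p fell (-2.04 in *hrpk-1(zen17)* and -2.54 in wild type), while miR-82-5p did not pass. miR-44-5p changed by -4.04 in *hrpk-1(zen17)* and -4.41 in wild type, with 9.28, 12.3 and 6.58 ppm in wild type L4 larvae, against 125, 184 and 170 ppm in wild type embryos. miR-45-5p, whose guide has nearly the same counts as that of miR-44-5p, changed by -1.02 in *hrpk-1(zen17)* and -1.59 in wild type. In the conserved single-copy set, the stars of miR-124 (sensory neurons), miR-87 and miR-236 (a homolog of the miR-200 family) fell, that of miR-235 (a homolog of miR-92) rose, and that of miR-1 did not pass in either genotype.

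**Figure D3:**
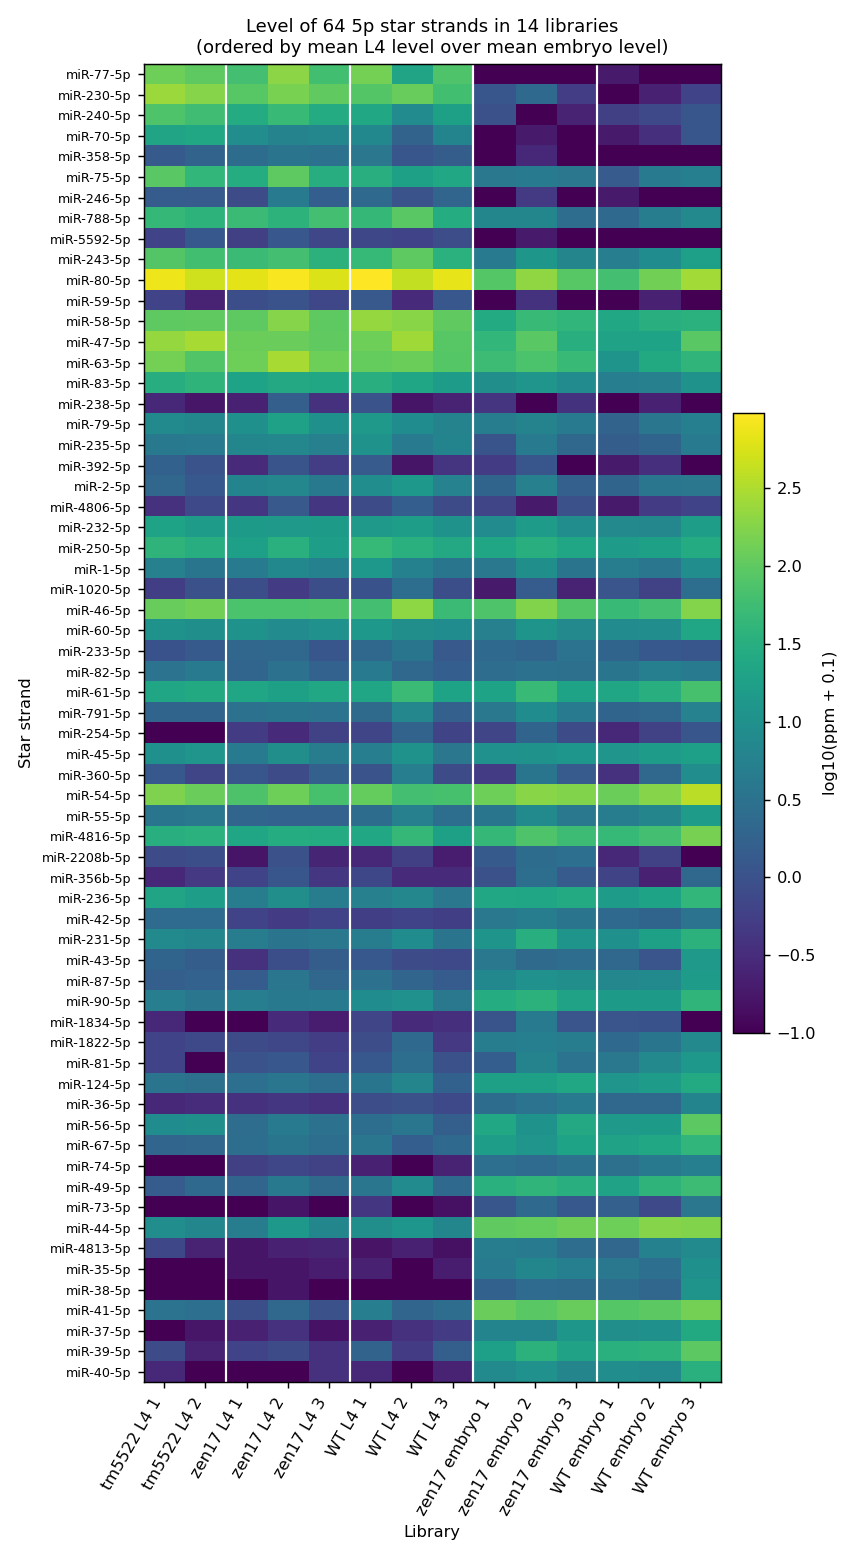
Level of each of the 64 5p stars (rows, ordered by mean L4 level over mean embryo level) in each of the 14 libraries (columns, white lines between groups), as log10 of ppm plus 0.1. miR-77-5p at the top is at 20.8 to 194 ppm in L4 libraries and at or near 0 in embryo libraries, and the mir-35 family stars near the bottom show the opposite.

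The star to guide ratio of each pair removes what both strands share, such as the level of the precursor and the scale of the library. It was tested with limma on log2 ratios with a pseudocount of 0.5. At L4 against embryos of *hrpk-1(zen17)*, 24 of 56 members passed, 10 higher and 14 lower, and 39.3% of the 89 star and guide pairs tested passed, 12.4% higher and 27.0% lower. In wild type 33 of 54 passed, 8 higher and 25 lower, against 51.8% of 85 pairs, 14.1% higher and 37.6% lower. The median change of the members was -0.65 in *hrpk-1(zen17)* and -1.11 in wild type, against -0.61 and -0.94 over all pairs, so on the median a star was scarcer relative to its guide at L4. In *hrpk-1(zen17)* the 24 calls became 12 without L4 replicate 1 or 3 and 13 without embryo replicate 3, and in wild type the 33 became 22 without L4 replicate 3. Without the libraries that stood apart there were 25 calls in *hrpk-1(zen17)* (embryo replicate 2), and 31 (L4 replicate 2) and 34 (embryo replicate 3) in wild type.

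The mir-35 family went the other way. Its stars fell at L4, but most of its guides fell further. A higher ratio at L4 was called for 6 of 8 members in *hrpk-1(zen17)* (median change 3.03) and for 5 of 7 in wild type (median 3.74). None had a lower one. Star counts at or near 0 enter these tallies, and such ratios rest largely on the pseudocount. Among the 6 is miR-38-5p, with 1 count in the *hrpk-1(zen17)* L4 libraries together. In wild type miR-38-5p, with 0 L4 counts, is among the 7 but did not pass. The wild type median is the value of miR-35-5p, which had 0 counts in L4 replicate 2. miR-36-5p made up 4.74%, 3.70% and 2.90% of its pair in wild type L4 larvae, against 0.0250%, 0.0370% and 0.0771% in wild type embryos, a change of 6.55 in the log2 ratio (SE 0.55, limma adjusted p = 7.6e-05). Its guide fell by 8.74 on the log2 scale and the star by 2.15. These L4 values rest on 12, 13 and 13 star counts and 241, 338 and 436 guide counts in wild type. The ratio of miR-37-5p changed by 5.52 in *hrpk-1(zen17)* and 4.5 in wild type, and that of miR-35-5p by 4.48 and 3.74, both on at most 8 star counts in any of these L4 libraries.

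miR-41-5p, which lies at the end of the same cluster, had 77, 28 and 51 counts in wild type L4 larvae, against 11, 67 and 19 for its guide. It was above its guide in 2 of these 3 libraries, and in no embryo library of either genotype. miR-40-5p, whose guide fell by 7.48 and whose star fell by 6.90 in wild type, did not pass in either genotype. miR-42-5p, the star of the family member encoded apart from the cluster, passed in *hrpk-1(zen17)* (1.28, SE 0.37, adjusted p = 0.029), a call that held in 4 of 9 alternatives.

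**Figure D4:**
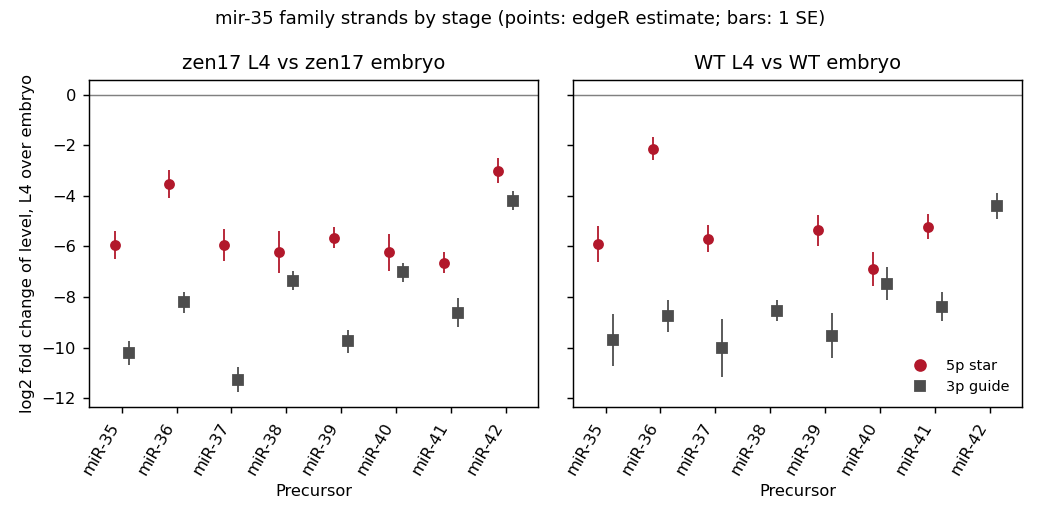
Log2 fold change of level at L4 over embryos (vertical axis, edgeR estimate, bars 1 SE) for the 5p stars and 3p guides of the 8 mir-35 family precursors in *hrpk-1(zen17)* (left) and wild type (right). Guides lie lower than stars for miR-35, miR-36, miR-37, miR-39 and miR-41 in both panels. In wild type miR-42-5p was not tested and miR-38-5p, with no L4 counts, is not drawn.

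Pairs whose ratio was lower at L4 differed in which strand had changed. For some the star fell, as for miR-56-5p (ratio change -2.02 in *hrpk-1(zen17)* and -3.98 in wild type), miR-44-5p (-2.89 and -3.63) and miR-124-5p (-1.92 and -3.33). The guides of miR-44-5p and miR-45-5p share nearly all their counts, so the ratios of these 2 stars are uncertain. For others the star rose and the guide rose more, as for miR-80-5p, which made up 3.03% ± 0.51 of its pair in wild type L4 larvae and 11.7% ± 3.96 in wild type embryos (SD, n = 3 each), a change of -2.05 (SE 0.48, adjusted p = 0.0074). In *hrpk-1(zen17)* its ratio change was -0.96 and did not pass (SE 0.42, adjusted p = 0.098). In further pairs the guide rose while the star did not pass, as for miR-1-5p in wild type (star change 0.20, SE 0.50). Of the 25 members with a lower ratio in wild type, the star itself fell for 14, the guide rose for 12, both for 2, and neither passed for 1.

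In *hrpk-1(zen17)* embryos, 7 of 50 members tested had lower levels than in wild type embryos and 0 had higher ones, while 17.9% of the 201 strands tested passed, 7.46% lower and 10.4% higher. The 7 were miR-81-5p (-1.55), miR-39-5p (-1.49), miR-40-5p (-1.21), miR-55-5p (-1.12), miR-67-5p (-1.09), miR-60-5p (-1.02) and miR-4816-5p (-0.82). The median log2 fold change of the members was -0.48, against -0.08 over all strands. At an unadjusted p under 0.05 there were 18 of the 50 members and 59 of the 201 strands.

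The most stable of these calls was miR-39-5p, of the mir-35 cluster. In CPM, the ppm of the library corrected by its TMM factor, it was at 17.2, 23.8 and 19.5 in *hrpk-1(zen17)* embryos, against 56.0, 50.6 and 63.9 in wild type embryos, with no overlap (SE 0.25, adjusted p = 0.0019). As ppm of the library, without TMM factors, it was at 17.3, 36.5 and 19.6 in *hrpk-1(zen17)*, against 33.1, 37.0 and 95.3 in wild type, and the groups overlapped. Its call held in 11 of 13 alternatives. miR-81-5p, of the bantam family, was at 1.45, 3.82 and 3.13 CPM in *hrpk-1(zen17)* and at 6.36, 9.93 and 8.74 in wild type embryos (SE 0.40, adjusted p = 0.026), and its call held in 7 of the 12 in which it was tested.

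These 7 calls depended on the scale. With library totals in place of TMM factors, which moved the median of all strands by 0.39, the 7 kept their direction, none passed, and 1 other member was called higher. A fit over all 14 libraries likewise called none of the 7, and leaving out 1 library left between 1 and 6 members called, with 1 without *hrpk-1(zen17)* replicate 1, 2 without *hrpk-1(zen17)* replicate 3 or wild type replicate 1, 4 without wild type replicate 2, 5 without *hrpk-1(zen17)* replicate 2 and 6 without wild type replicate 3. By family, 2 of 8 mir-35 stars, 1 of 3 mir-51 stars and 1 of 4 bantam stars fell and none rose. The mir-35 guides, which set most of the embryo total, took a lower share of all 3 *hrpk-1(zen17)* libraries than of wild type replicates 1 and 2. Wild type replicate 3, at 51.4%, lay below all 3 *hrpk-1(zen17)* libraries. The part of these guides in the calls was not tested.

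In *hrpk-1(zen17)* L4 larvae, 0 of 50 members passed against wild type L4 larvae, and 0% of the 228 strands tested. The smallest adjusted p of a member was 0.26 (edgeR), 4 members and 33 of the 228 strands had an unadjusted p under 0.05, and DESeq2 called 0 members. The 4 members were miR-36-5p (-1.34), miR-41-5p (-1.37), miR-63-5p (0.76) and miR-55-5p (-0.87). Without wild type L4 replicate 2, 2 members passed. Star to guide ratios gave 0 calls of 50 members in embryos and 0 of 50 at L4, where 0% of all 70 and 81 pairs passed. Unadjusted p-values under 0.05 were found for 5 members and 9 of all pairs in embryos, and for 4 members and 8 of all pairs at L4. The median change in ratio was -0.51 in embryos and -0.32 at L4, against -0.51 and -0.37 over all pairs.

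The *hrpk-1(zen17)* change differed between the stages for 1 of 63 members, miR-74-5p, where 4.80% of 250 strands passed. For 0.800% the change was more positive at L4 and for 4.00% it was more negative. This star, from the X chromosome at 2369043-2369139, had 7, 9 and 9 counts in *hrpk-1(zen17)* and 2, 0 and 3 in wild type L4 larvae. In embryos it had 28, 25 and 21 counts in *hrpk-1(zen17)* and 31, 31 and 10 in wild type. Scaled to CPM these were 2.71, 1.54 and 2.99 in *hrpk-1(zen17)* and 4.81, 5.50 and 3.49 in wild type. The difference of the 2 changes was 3.12 on the log2 scale (SE 0.85, adjusted p = 0.046) and held in 6 of 18 alternatives. It was lost without *hrpk-1(zen17)* embryo replicate 2 and held without wild type L4 replicate 2 or wild type embryo replicate 3. For the ratio 1 of 63 passed, miR-5592-5p (3.39, adjusted p = 0.012), where 1.04% of 96 pairs passed. In wild type embryos this pair had 0 star counts and 2, 2 and 1 guide counts, so its ratio there is set by the pseudocount.

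In *hrpk-1(tm5522)* L4 larvae, 6 of 53 members tested differed from wild type L4 larvae, 4 higher and 2 lower, while 22.4% of the 232 strands tested passed, 10.3% higher and 12.1% lower. Those that rose were miR-42-5p (2.22), miR-56-5p (1.86), miR-236-5p (1.83) and miR-230-5p (1.31). Those that fell were miR-2-5p (-2.52) and miR-254-5p. The median over the members was -0.21, against -0.09 over all strands. With 2 libraries in the mutant group no call survived the loss of either of them. Without wild type L4 replicate 2, which stood apart, 19 members passed, 10 higher and 9 lower, and without replicate 1 or 3 of wild type 3 passed. Calls over all strands also varied widely with the library left out, as given at the end, so these counts are not particular to 5p stars.

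miR-236-5p, from chromosome II at 7030180-7030277, was at 20.8 and 16.6 ppm in *hrpk-1(tm5522)*, against 4.57, 9.13 and 4.79 ppm in *hrpk-1(zen17)* and 5.38, 6.77 and 3.74 ppm in wild type L4 larvae. No other L4 library reached either *hrpk-1(tm5522)* library (SE 0.25, adjusted p = 0.0098 against wild type). It was also higher than in *hrpk-1(zen17)*, by 1.54 (SE 0.25, adjusted p = 0.0017), a call that held under every alternative.

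miR-42-5p had 26 and 32 counts in *hrpk-1(tm5522)* L4 larvae, against 8, 6 and 10 in *hrpk-1(zen17)* and 7, 8 and 9 in wild type L4 larvae. It made up 0.337% and 0.302% of its pair in *hrpk-1(tm5522)*, against 0.0404% to 0.0468% in *hrpk-1(zen17)* and 0.0218% to 0.0893% in wild type. Level and ratio were both higher than in *hrpk-1(zen17)*, by 2.12 and 2.82, and both calls held in each alternative in which the star was tested. For the level, it was too scarce to be tested at a minimum of 50 counts. miR-56-5p was at 8.66 and 9.59 ppm in *hrpk-1(tm5522)*, against 2.51, 4.17 and 3.01 ppm in *hrpk-1(zen17)* and 2.63, 3.62 and 1.52 ppm in wild type L4 larvae. Its guide did not pass in either comparison (-0.32 and 0.03).

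miR-2-5p, from a gene in an intron of ppfr-1, was at 1.97 and 1.16 ppm in *hrpk-1(tm5522)*, against 6.22, 6.81 and 3.93 ppm in *hrpk-1(zen17)* and 8.71, 13.3 and 5.67 ppm in wild type L4 larvae. Every other L4 library was above both *hrpk-1(tm5522)* libraries (SE 0.37, adjusted p = 0.011 against wild type). The difference from *hrpk-1(zen17)* was -1.95 (SE 0.37, adjusted p = 0.0027) and held under every alternative. miR-254-5p had 0 and 0 counts in *hrpk-1(tm5522)*, against 9, 26 and 11 in wild type L4 larvae, at least 7.61-fold lower in the mutant (adjusted p = 0.031). Its counts are few.

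Against *hrpk-1(zen17)* L4 larvae, 15 of 49 members differed in *hrpk-1(tm5522)*, 11 higher and 4 lower, while 38.4% of 229 strands passed, 17.9% higher and 20.5% lower. This comparison shares its *hrpk-1(tm5522)* libraries with that against wild type. Besides the strands above, miR-70-5p rose by 1.51 (SE 0.29, adjusted p = 0.0033), with 20.8 and 24.0 ppm in *hrpk-1(tm5522)* and 8.93, 5.95 and 6.78 ppm in *hrpk-1(zen17)*. Wild type L4 libraries held 7.24, 1.74 and 6.07 ppm of it, with replicate 2 the low one, and the difference of *hrpk-1(tm5522)* from wild type was 1.99 with an adjusted p of 0.080. miR-47-5p and miR-46-5p, whose guides share a seed, rose by 1.06 and 0.68. The lower ones were miR-2-5p, miR-358-5p (-1.02), miR-791-5p (-0.90), from a miRNA of CO2-sensing neurons, and miR-79-5p (-0.87). Of the 15 calls, 3 were tested and held under every alternative (miR-236-5p, miR-56-5p and miR-2-5p), miR-42-5p held in all but the one that did not test it, and all 15 kept their direction wherever they were tested. The count fell to 7 or 8 without *hrpk-1(zen17)* replicate 1 or 3 or *hrpk-1(tm5522)* replicate 1, was 10 without *hrpk-1(tm5522)* replicate 2, and was 24 without *hrpk-1(zen17)* replicate 2.

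The star to guide ratio gave more calls than the level in *hrpk-1(tm5522)* against wild type, and as many against *hrpk-1(zen17)*. Against wild type, 17 of 53 members passed, 12 higher and 5 lower, where 35.3% of the 85 pairs tested passed, 15.3% higher and 20.0% lower. Of the 32 pairs with a 3p star, 1 was higher and 12 were lower. Against *hrpk-1(zen17)*, 15 of 49 members passed, 14 higher and 1 lower, where 33.3% of 78 pairs passed, 19.2% higher and 14.1% lower, and of 29 pairs with a 3p star 1 was higher and 10 were lower. Without *hrpk-1(zen17)* replicate 3, 8 members passed in that comparison. Most of the members' ratio calls in both comparisons did not hold under every alternative, though all kept their direction. The difference between the 2 arms was not tested. The median change of the members was 0.01 against wild type and 0.15 against *hrpk-1(zen17)*, with -0.48 and -0.08 over all pairs.

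A rise in the ratio can come from either strand. Of the 12 members with a higher ratio against wild type, the star itself had risen for 4 (miR-42-5p, miR-236-5p, miR-230-5p and miR-56-5p), the guide had fallen for 6 (miR-43-5p, miR-124-5p, miR-232-5p, miR-250-5p, miR-75-5p and miR-49-5p), and neither had passed for 2. Against *hrpk-1(zen17)* the star had risen for 5 of 14 and the guide had fallen for 10, with both for miR-42-5p.

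miR-250-5p shows the second kind. Its star was at 38.7 and 30.4 ppm in *hrpk-1(tm5522)*, against 17.9, 33.8 and 17.1 ppm in *hrpk-1(zen17)* and 45.7, 34.0 and 24.9 ppm in wild type L4 larvae, with overlap, while its guide had 855 and 796 counts, against 2539 to 2916 in *hrpk-1(zen17)* and 4051 to 6476 in wild type. The star made up 33.6% and 34.5% of the pair in *hrpk-1(tm5522)*, against 9.61% to 14.9% in *hrpk-1(zen17)* and 8.34% to 11.1% in wild type (2.26, SE 0.47, limma adjusted p = 0.0067 against wild type). The same form was seen for miR-124-5p, with ratio changes of 2.36 against wild type and 1.84 against *hrpk-1(zen17)*, where the guide fell by 2.49 and by 1.91. For miR-232-5p they were 1.83 and 1.97. The guide had also fallen for miR-43-5p (3.15 and 3.48) and miR-49-5p (1.63 and 1.89), but their stars did not overlap wild type in CPM. That of miR-43-5p was higher (0.86) and that of miR-49-5p lower (-1.29), and neither passed.

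miR-230-5p, the most abundant member with a higher ratio, made up 45.1% of its pair in both *hrpk-1(tm5522)* libraries, against 21.7% to 24.7% in *hrpk-1(zen17)* and 11.1% to 24.6% in wild type L4 larvae. Its level was at 240 and 178 ppm in *hrpk-1(tm5522)*, above the 87.4 to 150 ppm of *hrpk-1(zen17)* and the 59.3 to 114 ppm of wild type. miR-392-5p had the largest change in ratio among members called in both comparisons (4.23 and 4.56), on 18 and 13 star counts and 1 and 0 guide counts in *hrpk-1(tm5522)*. With so few guide counts the size depends on the pseudocount, and it was 1.81 and 2.09 at the lowest of the alternatives, though the call held in all of them.

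The 5 members with a lower ratio against wild type were miR-81-5p (-3.69), miR-254-5p, miR-246-5p (-2.56), miR-4806-5p (-1.96) and miR-2-5p (-1.87). Against *hrpk-1(zen17)*, miR-254-5p and miR-4806-5p were too scarce to be tested. There miR-81-5p (-2.80, limma adjusted p = 0.074) and miR-2-5p (-1.16, limma adjusted p = 0.069) were lower but did not pass. Only miR-246-5p also passed against *hrpk-1(zen17)* (-1.32, adjusted p = 0.040). It was at 1.34 and 1.31 ppm in *hrpk-1(tm5522)*, against 2.18, 0.938 and 1.92 ppm in wild type L4 larvae, with overlap, while its guide had 22593 and 20563 counts, against 9181, 2741 and 7745 in wild type. miR-81-5p had 6 and 0 star counts in *hrpk-1(tm5522)* and 18, 39 and 17 in wild type, with a guide at 692848 and 818511 counts in *hrpk-1(tm5522)* and 649972 to 897593 in wild type. Either *hrpk-1(tm5522)* library decided many of the ratio calls against wild type, while 28 members passed without wild type L4 replicate 2. Calls over all pairs also varied widely with the library left out, as given at the end.

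**Figure D5:**
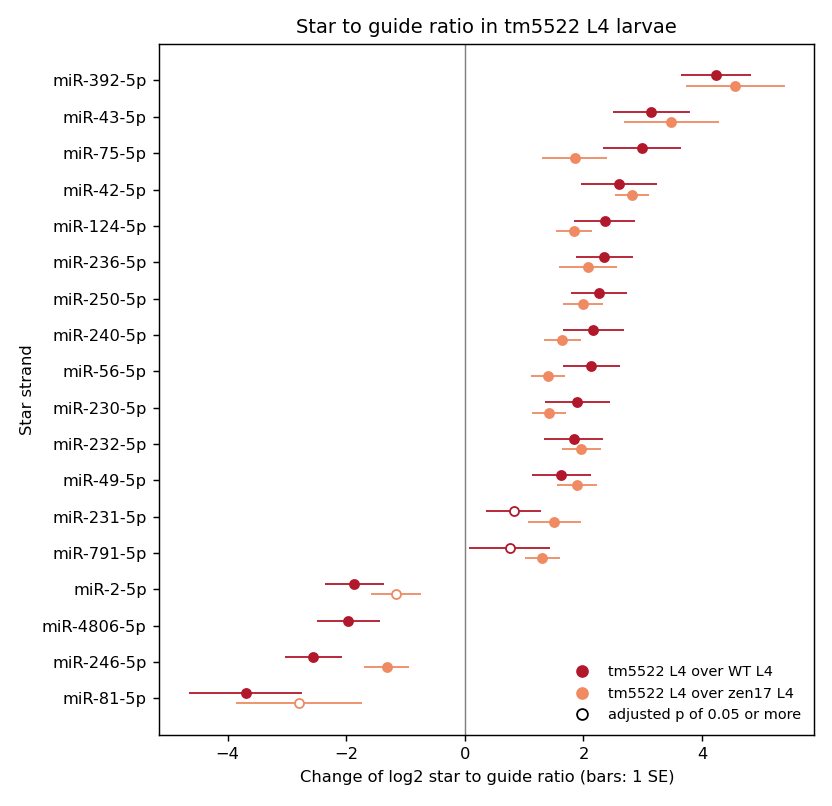
Change in log2 star to guide ratio (horizontal axis, limma estimate, bars 1 SE) of the 18 members called in either comparison and counted in every group, for *hrpk-1(tm5522)* over wild type L4 larvae and over *hrpk-1(zen17)* L4 larvae. Filled points passed an adjusted p of 0.05, and 13 members are filled for both. miR-254-5p, with no count in *hrpk-1(tm5522)*, is not drawn, and both comparisons use the same 2 *hrpk-1(tm5522)* libraries.

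The star of lsy-6, a neuronal miRNA that acts in taste neuron asymmetry, did not meet the counting rule. The star of miR-58 was at 98.3 and 102 ppm at L4 in *hrpk-1(tm5522)*, against 98.4, 179 and 97.4 ppm in *hrpk-1(zen17)* and 225, 189 and 101 ppm in wild type, and passed in no comparison of genotypes at L4. Of the mirtrons, which are spliced rather than cut by Drosha, miR-62-5p was outside the counting rule and miR-1020-5p, which at L4 had 5 and 12 counts in *hrpk-1(tm5522)*, against 12, 6 and 15 for *hrpk-1(zen17)* and 14, 40 and 16 for wild type, passed in no level comparison in which it was tested.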

How the data were processed

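Small RNA libraries were trimmed with cutadapt 1.15 and aligned with Bowtie, per the submitters' processing notes. The deposited values are raw read counts per miRNA strand, with strands named by arm and as guide or star by the authors, and were not normalized. The miRNA annotation version, the treatment of reads that match several miRNAs and the use of molecular identifiers are not given in the sources used here, so counting intervals and floors cover counting error only. Levels per library are given as counts per 1000000 table counts (ppm), and a limit for 0 counts uses 3 counts over the group.

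Levels were tested with edgeR 4.0.16 (quasi-likelihood, TMM factors, compared groups only, R 4.3.3) over all strands with at least 10 counts in as many libraries as the smaller group holds. For star to guide ratios, limma 3.58.1 was run on log2 values after a pseudocount of 0.5 was added to both strands. P-values were adjusted by Benjamini-Hochberg over everything tested, with a threshold of 0.05. Every test was two-sided, and the scripts were tested on simulated data. Alternatives were DESeq2 1.42.0, RLE factors, library totals, no filter, at least 50 counts, a fit over all 14 libraries, a replicate block, a pseudocount of 5, and leaving out each library. Positions come from Ensembl 115. Figures used matplotlib 3.10.9.

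Members and lists were chosen with earlier results of these data known. Members are named where they are among the 10 most abundant, among the 5 largest called changes in a direction (mean of at least 20 counts for levels), called in the test of the difference between stages, named by the study from these data, or next to the counting threshold. Others were named after their values were seen. No sequences are printed.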

Additional observations from a re-analysis of the deposited data

Results flagged for a closer look

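The change in *hrpk-1(zen17)* relative to wild type differed between L4 larvae and embryos in 2 tests. The level of miR-74-5p gave a difference of 3.12 on the log2 scale (edgeR, 1 of 63 members), from 25 counts in *hrpk-1(zen17)* and 5 in wild type over the L4 libraries and from 74 and 72 over the embryo libraries. These counts are not scaled to the library totals, which differ. In CPM the embryo means were 2.41 in *hrpk-1(zen17)* and 4.60 in wild type, a log2 fold change of -0.99 that did not pass. The star to guide ratio of miR-5592-5p gave 3.39 (limma, 1 of 63 members), with 1 star count in *hrpk-1(zen17)* embryos and 0 in wild type embryos. Its call was lost with a pseudocount of 5 and without *hrpk-1(zen17)* L4 replicate 3.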

How the results depend on the processing

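Among the tracked estimates of single members, 1 was recorded as changing sign: miR-80-5p in *hrpk-1(tm5522)* against *hrpk-1(zen17)* L4 larvae, which did not pass. It was 0.15 without *hrpk-1(tm5522)* L4 replicate 2 and -0.58 without replicate 1. Estimates close to 0 have no firm sign. Among them are miR-80-5p in *hrpk-1(zen17)* against wild type L4 larvae (-0.006, SE 0.40) and miR-250-5p in *hrpk-1(tm5522)* against wild type (-0.03, SE 0.30). In *hrpk-1(zen17)* against wild type embryos, members called were 12 with DESeq2, 1 with library totals, 4 with no filter and 1 in the fit over all 14 libraries, and all strands called were 17 with library totals. In *hrpk-1(zen17)* against wild type L4 larvae all strands called were 9 with DESeq2 and 3 with library totals. In *hrpk-1(tm5522)* against wild type, DESeq2 called 80 strands, 10 of them members, and the fit over all libraries called 81, 12 of them members. Against *hrpk-1(zen17)* the fit over all libraries called 39 strands, 5 of them members. For the difference between stages, DESeq2 called 19 strands, and library totals, no filter and at least 50 counts called 0 members. For ratios, the fit over all libraries called 15 pairs in *hrpk-1(tm5522)* against *hrpk-1(zen17)*, 9 of them members. A pseudocount of 5 called 2 pairs for the difference between stages. Without miR-80-5p the summed share was 1588 ppm in *hrpk-1(tm5522)*, 1212 ppm in *hrpk-1(zen17)* and 1205 ppm in wild type L4 larvae. The cause of these differences was not tested.

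Leaving out 1 library gave 0 to 115 strands and 0 to 19 members in *hrpk-1(tm5522)* against wild type, 63 to 120 and 7 to 24 against *hrpk-1(zen17)*, 17 to 47 and 1 to 6 in *hrpk-1(zen17)* against wild type embryos, 0 to 8 and 0 to 2 at L4, 164 to 190 and 40 to 47 between stages in *hrpk-1(zen17)*, 156 to 174 and 40 to 44 in wild type, and 9 to 15 and 0 to 1 for the difference between stages. For ratios it gave 8 to 42 pairs and 3 to 28 members, 13 to 30 and 8 to 17, 0 and 0, 0 and 0, 17 to 44 and 12 to 30, 30 to 48 and 22 to 34, and 0 to 3 and 0 to 1 in the same order. Where 1 *hrpk-1(tm5522)* library was left, it was assumed to vary like the other groups.

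Deviations of same-numbered libraries had correlations of -0.36 to 0.17. With so few libraries in each group, these values cannot tell whether same-numbered libraries were prepared together. With the replicate block, 53 strands passed in *hrpk-1(tm5522)* against *hrpk-1(zen17)*, 6 of them members, and 17 pairs passed there by ratio. With that block 1 pair passed by ratio in *hrpk-1(zen17)* against wild type embryos, and 0 members passed for the difference between stages. Depth limits the scarce stars most: 32 of the 39 strands outside the counting rule had at least 1 count, and wild type embryo replicate 3 has 1919348 counts in all.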
